A study of Mus musculus with 10 samples.

Results

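The flavin monooxygenases described here are the 4 genes Fmo1, Fmo2, Fmo4 and Fmo5, chosen by name and found by Ensembl identifier among the 41388 genes of the deposited liver tables. RNA was sequenced from livers of mice aged 10 weeks that came from reciprocal crosses of an obese strain, BFMI860-12/Hber (BFMI, a Berlin Fat Mouse line), with the lean strain C57BL/6NCrl (B6N). The 10 libraries, 1 per animal, were 3 F1 males whose mothers were BFMI (matBFMI), 3 F1 males whose fathers were BFMI (patBFMI), 1 female and 1 male BFMI, and 1 female and 1 male B6N. F1 animals ate a high fat diet from weaning. The sample records name standard breeding diet for the inbred animals, whereas the design text names high fat diet, so that the diet of the inbred animals is uncertain here. The matBFMI and patBFMI males carry the same autosomal parental genomes and differ in the direction of the cross, and so in the origin of the X and Y chromosomes, the mitochondria and the mother that raised them.

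Flavin monooxygenases are enzymes of the endoplasmic reticulum that use NADPH, FAD and oxygen to place an oxygen atom on nitrogen or sulphur atoms of drugs, food components and metabolites. FMO1 accepts a wide range of substrates and converts hypotaurine to taurine. FMO2 is the main form in the lung of many mammals, FMO4 has few known substrates, and FMO5 acts mostly as a Baeyer-Villiger monooxygenase on carbonyl compounds, with mice lacking it reported to stay lean with age. Several liver forms are known to differ between female and male mice.

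Fmo4, Fmo1 and Fmo2 lay side by side on the minus strand of chromosome 1 in GRCm38, and Fmo5 stood alone on chromosome 3. In the GENCODE M21 annotation Fmo4 (ENSMUSG00000026692) spanned chr1:162793188-162813972 with 6 transcripts. Fmo1 (ENSMUSG00000040181) spanned chr1:162829561-162866610 with 8 transcripts. Fmo2 (ENSMUSG00000040170) spanned chr1:162874317-162898726 with 7 transcripts. Fmo5 (ENSMUSG00000028088) spanned chr3:97628804-97655282 on the plus strand with 5 transcripts. No other annotated gene overlapped any of the 4 (n = 0). The longest protein-coding transcripts of the 4 genes were 64.9% to 69.1% identical in the best aligned stretch of each pair (551 to 1146 bases, BLAST).

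The RefSeq table of start sites (GRCm38.p6) held 3 of the 4 members, and the 250 bases before each start were searched for elements bound by factors that are linked to sex or to lipid and energy metabolism in liver. The letters TNAAGGTCA, the element of the estrogen-related receptors, were found before 1 of the Fmo2 starts and before the Fmo4 start, on opposite strands. They occur, on either strand, in 1.14% of the 32851 windows of the same length. These stretches are shown because they hold the only matches found in these windows to any of the elements searched. Both are written 5′ to 3′ on the strand of the gene, with the match in capitals.
Fmo2, chr1:162898494-162898523, minus strand: ttgtaaacacgtttacaaTGAAGGTCAtat
Fmo4, chr1:162812605-162812634, minus strand: tgacaacttcTGACCTTCAtccagaaattc
The Fmo2 match began 12 bases and the Fmo4 match 75 bases before the RefSeq start, and neither overlapped another motif searched. Both stretches lie inside the GENCODE spans of the genes given above, not upstream of them. Most of the Fmo5 window, chr3:97628769-97629018, also lies inside the span of its gene. The bases just after the Fmo4 start were found in 0 protein-coding GENCODE transcripts of that gene, and those after this Fmo2 start in 1. No window of Fmo2, Fmo4 or Fmo5 (4 windows, 2 of them of Fmo2) held a STAT5 site (TTCNNNGAA, present in 7.02% of all windows), an estrogen response element (0.0639%) or an androgen response element (0.0091%). A match is a run of letters and not a bound site, and these windows do not cover more distant regulatory sequence.

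All 4 genes were measured deeply. Libraries held 46988713 to 96023811 counts assigned to genes, the BFMI male being the deepest, and each member had at least 282 counts in every library, so that all 4 passed the filters on low counts in every fit. By the file headers the matBFMI libraries were run on lane 6 and the patBFMI libraries on lane 5. Lane and cross therefore cannot be told apart. The BFMI male was run on lane 1 and the other 3 inbred libraries on lane 4. Lane therefore also cannot be told apart from strain within males or from sex within BFMI. The patBFMI 1 library stood apart from the other F1 libraries with 32421 genes that had a count, against 22095 to 26694. Hepatocyte markers were high in every library, with a summed 54128 to 82101 CPM (counts relative to library size, scaled as in the fit of all 10 libraries) over the 4 measured markers. Lung epithelium markers, of interest for Fmo2, summed to at most 1.02 CPM in any library. In bulk liver, fewer cells of a type and less RNA per cell cannot be told apart.

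Fmo5 and Fmo1 made up most of the summed signal of the 4 genes. On the deposited RPKM scale, which is per length and so allows levels of different genes to be set side by side, the median over the 10 libraries was 39.2 for Fmo5, 25.5 for Fmo1, 2.62 for Fmo4 and 1.69 for Fmo2. Fmo5 gave 32.8% to 63.9% of the summed RPKM of the 4 genes and Fmo1 29.7% to 48.4%. Fmo4 gave 2.39% to 5.74% and Fmo2 1.54% to 13.7%. Fmo5 was the highest of the 4 in 9 libraries. The exception was the B6N female, where Fmo1 had 48.5 RPKM and Fmo5 32.9 RPKM, and where Fmo2, at 13.7 RPKM, passed Fmo4, at 5.16 RPKM. The sum was highest in the B6N female, at 100.2 RPKM, and lowest in patBFMI 3, at 49.7 RPKM.

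**Figure D1:**
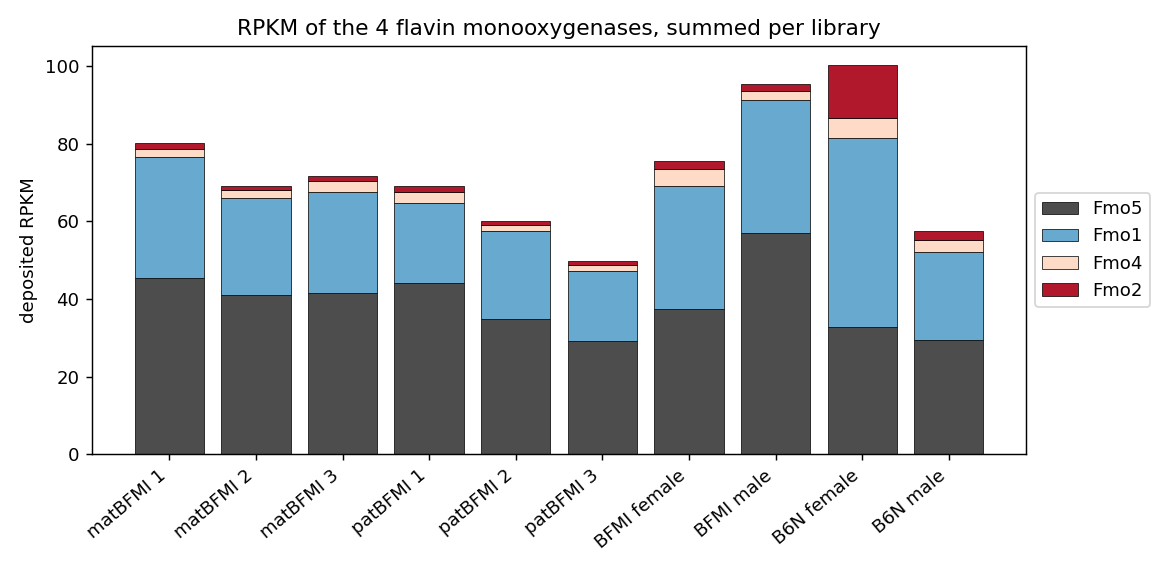
Stacked bars give the deposited RPKM of Fmo5, Fmo1, Fmo4 and Fmo2 in each of the 10 liver libraries (vertical axis in RPKM, starting at 0). Fmo5 is the largest segment in 9 libraries, while in the B6N female Fmo1 (48.5 RPKM) is above Fmo5 (32.9 RPKM) and Fmo2 reaches 13.7 RPKM.

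The first comparison asked whether F1 males with a BFMI mother differed from those with a BFMI father. All 4 genes had a higher mean in matBFMI than in patBFMI, by 1.23-fold to 1.37-fold in the edgeR fit, and none passed the test across all genes (0 of 4, edgeR, threshold 0.05 after Benjamini-Hochberg adjustment, where 0.143% of 16797 genes passed). Fmo1 had 139.8, 109.5 and 117 CPM in matBFMI males, against 85.6, 104 and 76.5 CPM in patBFMI males, and the groups did not overlap. Of all genes tested, 7.8% had all matBFMI libraries above all patBFMI libraries. Fmo5 had 281, 243 and 255 CPM in matBFMI males, against 247, 217 and 161 CPM in patBFMI males, and the groups overlapped in that patBFMI 1 lay above matBFMI 2. Fmo2 had 9.05, 7.37 and 10.1 CPM in matBFMI males, against 6.83, 7.90 and 5.88 CPM in patBFMI males, with patBFMI 2 above matBFMI 2. Fmo4 had 5.76, 7.17 and 10.5 CPM in matBFMI males, against 5.67, 6.02 and 5.86 CPM in patBFMI males, with matBFMI 1 within the patBFMI range and most of the difference resting on matBFMI 3.

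As group means, Fmo1 was at 122 ± 15.7 CPM in matBFMI and 88.7 ± 14 CPM in patBFMI (SD, n = 3 each). Fmo2 was at 8.85 ± 1.40 CPM in matBFMI and 6.87 ± 1.01 CPM in patBFMI. Fmo4 was at 7.81 ± 2.43 CPM in matBFMI and 5.85 ± 0.176 CPM in patBFMI. Fmo5 was at 259 ± 19.4 CPM in matBFMI and 208 ± 43.4 CPM in patBFMI. For Fmo4 the SD within matBFMI was larger than the distance between the group means, and for Fmo1, Fmo2 and Fmo5 both SDs were smaller than it.

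By edgeR the log2 fold change of Fmo1, matBFMI over patBFMI, was 0.45 (SE 0.138, edgeR adjusted p = 0.326). That of Fmo2 was 0.35 (SE 0.149, edgeR adjusted p = 0.481). For Fmo4 it was 0.40 (SE 0.194, edgeR adjusted p = 0.548) and for Fmo5 0.30 (SE 0.16, edgeR adjusted p = 0.586). Before adjustment 2 of the 4 members had p under 0.05, as did 9.85% of all genes tested. Over all genes the median log2 fold change was -0.01. An exact two-sided permutation test of each gene alone on ln(RPKM + 1) gave p = 0.1 for Fmo1, the smallest value that 3 against 3 can give, and p = 0.4 for Fmo2, 0.6 for Fmo4 and 0.3 for Fmo5. Fmo1 crossed the threshold (adjusted p = 0.022) in edgeR without the filter on low counts. That setting called 696 genes, against 24 with the filter. Leaving out 1 library moved Fmo4 to between 0.13 (without matBFMI 3) and 0.58 (without matBFMI 1), and Fmo5 to between 0.14 (without patBFMI 3) and 0.46 (without patBFMI 1). Of the 8 markers of Kupffer cells and macrophages, all 8 were lower in matBFMI (summed 176 to 200.2 CPM, against 222 to 229 CPM in patBFMI, 0 past the test), and their part in these differences was not tested.

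**Figure D2:**
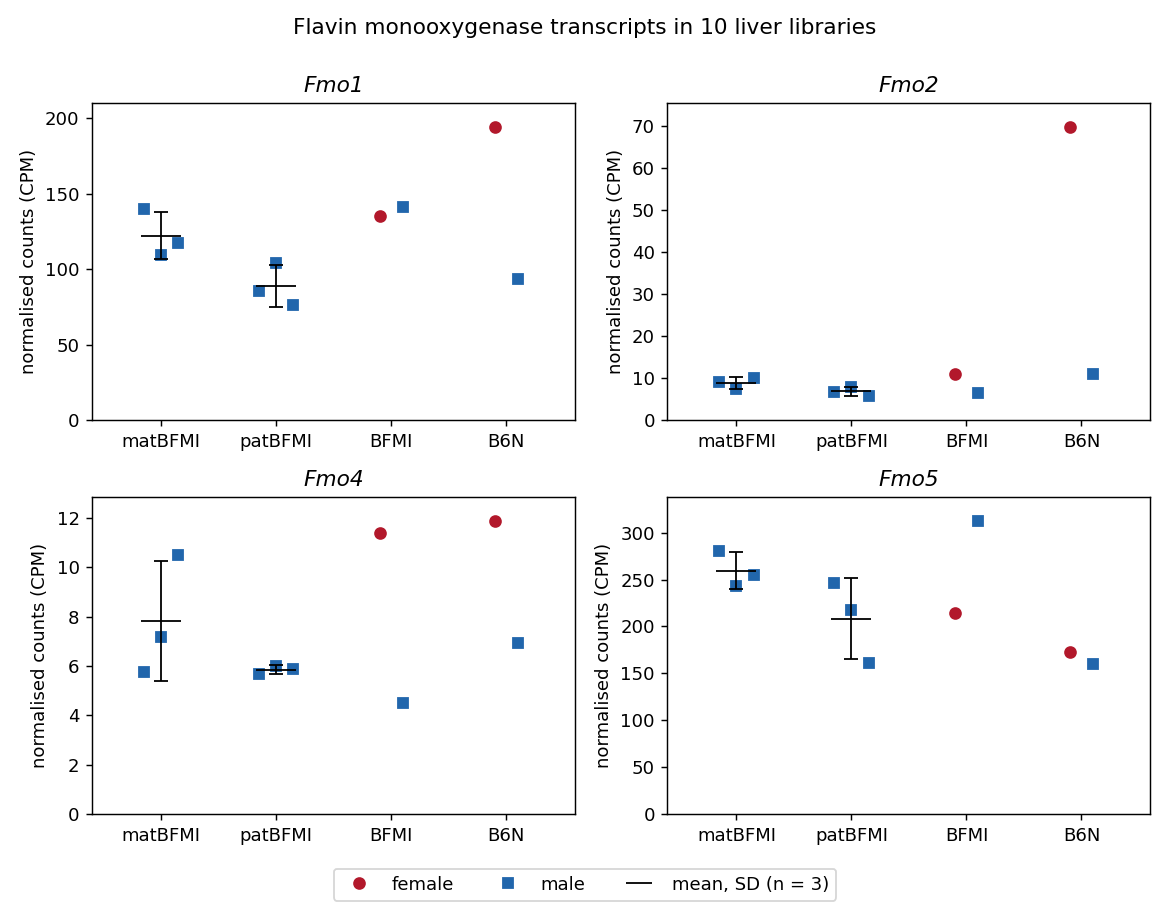
Each panel shows normalised counts (CPM, linear axis from 0) of 1 gene in the 10 libraries by group, circles for females and squares for males, with mean and SD for the 3 animals of each F1 group. For Fmo1 all matBFMI points lie above all patBFMI points, for the other 3 genes the F1 groups overlap, and for Fmo2 the B6N female, at 69.8 CPM, lies far above the other 9 libraries.

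Between the inbred strains Fmo2 was lower in BFMI than in B6N, and it was the only member of the 4 past the edgeR test. Fmo2 had 11.1 CPM in the BFMI female and 6.53 CPM in the BFMI male, against 69.8 CPM in the B6N female and 11.1 CPM in the B6N male. The B6N female stood alone, at 6.29 times the level of the next highest of the 10 libraries, and the BFMI female and the B6N male were nearly level. In the fit of all 10 libraries, which adjusts for sex and takes most of its spread from the F1 males, Fmo2 fell by 1.72 on the log2 scale in BFMI (SE 0.362, edgeR adjusted p = 0.0188). In that comparison 3.05% of 19974 genes were called lower and 6.67% in either direction. The call rested on the females. Within females the log2 fold change, BFMI over B6N, was -2.65 (SE 0.258, edgeR adjusted p = 0.00105, with 1.36% of genes called lower), and within males it was -0.76 (SE 0.251, edgeR adjusted p = 0.16, with 1.95% of genes called lower). Without the B6N female it was -0.76 (adjusted p = 0.171), and without the BFMI female -0.76 (adjusted p = 0.16). On log2(RPKM + 1) in limma, with all 10 libraries, it was -1.24 and did not pass the threshold (adjusted p = 0.232). Each inbred library is the only one of its strain and sex, and in these fits it is assumed to vary as the F1 males do.

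The B6N libraries also carried transcripts of pancreas. Cpa1, Prss2 and Pnlip, digestive enzymes of acinar cells, had 0.0194, 0.0194 and 0.117 CPM in the BFMI female and 0.0692, 0.0494 and 0.0494 CPM in the BFMI male. They had 11.7, 11.4 and 23.9 CPM in the B6N female and 2.09, 2.29 and 4.62 CPM in the B6N male, and at most 0.118 CPM in the 6 F1 libraries. The fourth marker, Cela1, did not follow them, at 28.1 and 16.2 CPM in the BFMI female and male and 24.3 and 13.7 CPM in the B6N female and male. Over the list of 4, the summed level was 16.3 to 28.2 CPM in BFMI and 22.7 to 71.3 CPM in B6N. Markers of Kupffer cells and macrophages summed to 208 to 270.5 CPM in BFMI and 351 to 373 CPM in B6N. Of these 8 markers 7 were negative and 3 were called lower in BFMI by edgeR, where 3.05% of all genes were called lower. Erythroid genes ran the other way, with a summed 733 and 918 CPM in the BFMI female and male and 225 and 394 CPM in the B6N female and male. Of the 5 erythroid genes all 5 were positive (median log2 fold change 1.45). By edgeR 4 of the 5 were called higher in BFMI, where 6.67% of all genes were called in either direction. In the females alone all 5 were positive too (median 1.77). Within females the markers of stellate cells (6 of 6), lymphocytes (5 of 5), adipocytes (3 of 3), kidney tubule (2 of 2) and lung epithelium (2 of 2) were all negative. Negative too were 4 of 6 endothelial, 4 of 5 cholangiocyte, 6 of 8 Kupffer cell and 1 of 4 hepatocyte markers. Over all genes the median was -0.06. The adipocyte, kidney tubule and lung values had standard errors of 0.703 to 2.39, and only their signs are given. These values set a single female library of each strain side by side. The pancreas transcripts were highest and the erythroid genes lowest in the library in which Fmo2 was highest, and the part of these marker lists in the Fmo2 result was not tested.

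Fmo5, the Baeyer-Villiger enzyme, had 215 CPM in the BFMI female and 313 CPM in the BFMI male, against 172 CPM in the B6N female and 159.7 CPM in the B6N male. The BFMI male had the highest level of the 10. The difference between the strains did not pass the test (log2 fold change 0.64, SE 0.214, edgeR adjusted p = 0.122). DESeq2 gave an adjusted p of 0.0215. The share of all genes that DESeq2 called between the strains is not given here. In the F1, sex and F1 versus inbred comparisons DESeq2 called more genes than edgeR. Within males the log2 fold change was 0.97 (SE 0.276, edgeR adjusted p = 0.102) and within females 0.32 (SE 0.274, edgeR adjusted p = 0.651). Whether the sexes differ in this is the same question as the interaction of sex and strain, which is given with the sexes.

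Fmo1 and Fmo4 showed no difference between strains that could be told from the spread. Fmo1 had 135 and 141 CPM in the BFMI female and male, against 194 and 93.3 CPM in the B6N female and male, so that the BFMI libraries lay between the B6N libraries (log2 fold change 0.04, SE 0.247, edgeR adjusted p = 0.966). Its sign differed by sex, at 0.60 within males and -0.52 within females (edgeR adjusted p = 0.277 and 0.372). Fmo4 had 11.4 and 4.50 CPM in the BFMI female and male, against 11.9 and 6.95 CPM in the B6N female and male (log2 fold change -0.34, SE 0.244, edgeR adjusted p = 0.567).

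Fmo2 and Fmo4 were higher in the female than in the male of both strains, as were 24.8% of all genes, and Fmo1 and Fmo5 were not. The female over male log2 fold change was 1.73 for Fmo2 (SE 0.362, edgeR adjusted p = 0.0814) and 1.06 for Fmo4 (SE 0.246, edgeR adjusted p = 0.124), a 3.31-fold and a 2.08-fold difference. For Fmo1 it was 0.50 (SE 0.247, edgeR adjusted p = 0.708) and for Fmo5 -0.22 (SE 0.213, edgeR adjusted p = 0.970). By edgeR 0 of 4 members passed (0.556% of all genes did), and 2 of 4 had an unadjusted p under 0.05 (7.8% of all genes). DESeq2 called Fmo2 (adjusted p = 1.82e-05) and Fmo4 (adjusted p = 0.00559), and limma with voom weights called Fmo2 alone (adjusted p = 0.0224). All these values rest on 2 females and 2 males of the inbred strains, since the F1 animals were all males.

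Taken strain by strain, Fmo2 rose 6.31-fold in the B6N female over the B6N male (log2 fold change 2.66, SE 0.258, edgeR adjusted p = 0.00222, a test that 0.751% of genes passed). In BFMI the same log2 fold change was 0.76 (SE 0.251, edgeR adjusted p = 0.459, where 0.205% of genes passed). The difference between those values, BFMI minus B6N, was -1.90 (SE 0.352), not past the threshold in edgeR and past it in DESeq2. The share of all genes past it in DESeq2 is not given here. This value rests on single libraries of each strain and sex, with the spread taken from the F1 males. Fmo4 had the larger value in BFMI, 1.34 (SE 0.338, edgeR adjusted p = 0.279), against 0.78 in B6N (SE 0.337, edgeR adjusted p = 0.493), and the difference of 0.57 was close to its SE of 0.474. Fmo1 had -0.06 in BFMI and 1.06 in B6N (difference -1.12, SE 0.349, edgeR adjusted p = 0.480). Fmo5 had -0.54 in BFMI and 0.11 in B6N (difference -0.66, SE 0.387, edgeR adjusted p = 0.708).

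**Figure D3:**
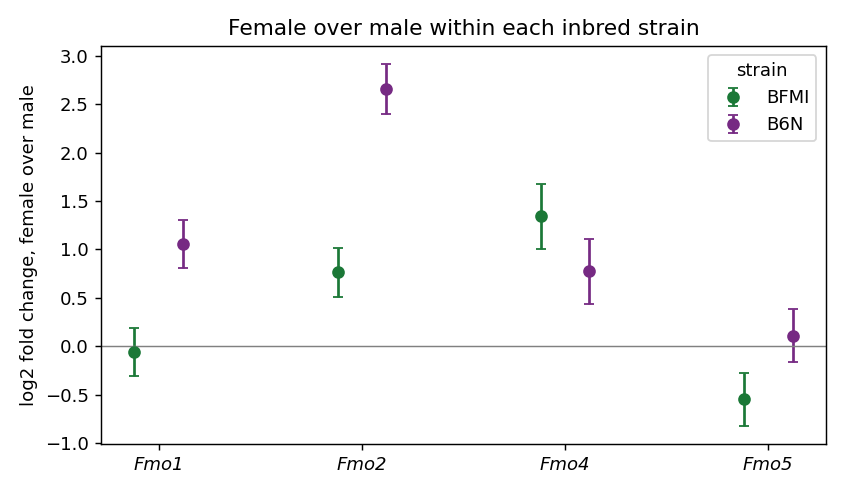
Points give the female over male log2 fold change of each gene within BFMI (green) and within B6N (purple), with bars for the standard error derived from the edgeR F statistic. Fmo2 is at 0.76 in BFMI and 2.66 in B6N, and Fmo4 is above 0 in both strains.

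The sex of the libraries matched known markers. All 11 female-biased liver genes were higher in females, 8 of them past the edgeR test (median log2 fold change 4.23, against 0.03 over all genes). All 12 male-biased genes were lower in females, 7 of them past the test (median -3.89). Within B6N 8 of 11 female-biased and 11 of 12 male-biased genes passed, and within BFMI 5 of 11 and 6 of 12. Xist, the RNA that silences an X chromosome, and the Y-linked genes are among those listed.

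No member passed the edgeR test between F1 males and the inbred strains (0 of 4, where 2.05% of genes passed, while 0 of 4 had an unadjusted p under 0.05, as 16.6% of genes did, and 0 of 4 passed by DESeq2). At equal sex the log2 fold change, F1 over inbred, was -0.17 for Fmo1 (SE 0.197), -0.19 for Fmo2 (SE 0.284), 0.27 for Fmo4 (SE 0.203) and 0.05 for Fmo5 (SE 0.174), with edgeR adjusted p from 0.531 to 0.917. Generation, lane and possibly diet cannot be told apart in this comparison.

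**Figure D4:**
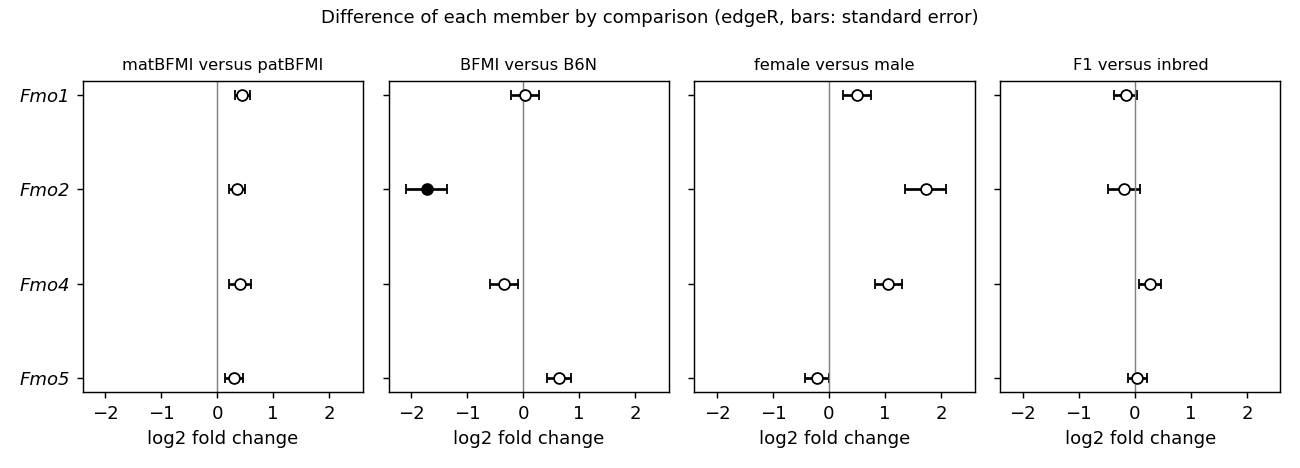
Points give the log2 fold change of each gene in 4 comparisons, with bars for the standard error derived from the edgeR F statistic, and filled points mark an adjusted p under 0.05. Only Fmo2 in BFMI versus B6N is filled, at -1.72, while all 4 genes lie between 0.30 and 0.45 in matBFMI versus patBFMI without passing the test.

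The members did not vary as a unit. Over the 10 libraries Pearson's r of log2 CPM was highest for Fmo1 with Fmo2 (0.72) and Fmo2 with Fmo4 (0.69), and lowest for Fmo2 with Fmo5 (-0.39). Without the B6N female r was 0.39 for Fmo1 with Fmo2, 0.73 for Fmo2 with Fmo4 and -0.13 for Fmo2 with Fmo5, and Fmo1 with Fmo5 moved to 0.72, against 0.25 with all 10. These are descriptions over libraries that share groups, lanes and, in the F1 animals, diet.

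Among 19973 other genes over the 10 libraries, Fmo2 was most like Cyp2c37 (r = 0.95), which encodes a cytochrome P450 enzyme of the same membrane, Gm9001 (0.94) and Nostrin (0.94). Fmo4 was most like St3gal5 (0.97), which encodes a ganglioside-making sialyltransferase, Npc2 (0.91), a lysosomal cholesterol carrier, and Nmi (0.91). Fmo1 was most like Abhd2 (0.95), Cers6 (0.93), a ceramide synthase, and Crls1 (0.93), the cardiolipin synthase. Fmo5 was most like Nsf (0.91), a factor of membrane fusion, 9130409I23Rik (0.91) and Gm10639 (0.91). Over the 6 F1 males alone the closest genes included Smim26 and Gjb2 for Fmo1 (0.995 each), Sgsm1, Ier5l and Cyb5rl for Fmo2 (0.99 to 0.991), Cenpx, Gm15502 and Pcnx3 for Fmo4 (0.991 to 0.996), and Tsku, Zfp879 and Invs for Fmo5 (0.976 to 0.986). With so few libraries, high values arise for many genes, and no gene was among the 3 closest in both sets. The B6N female, where Fmo2 was at 6.29 times its next highest level, weighs heavily in the Fmo2 values over the 10 libraries. Those values were not recomputed without it.

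Flavin monooxygenase genes were left out of the search for neighbours, and other tested genes within 200000 bases were few. Near the chromosome 1 members Prrc2c and Vamp4 did not pass the test in BFMI versus B6N (log2 fold change 0.04 and -0.39, edgeR adjusted p = 0.935 and 0.161). Near Fmo5, Chd1l, a chromatin remodeler 18601 bases away, was higher in BFMI (log2 fold change 0.63, edgeR adjusted p = 0.0121), and Prkab2, a subunit of AMP-activated protein kinase 2911 bases away, had a log2 fold change of 0.82 that did not pass (edgeR adjusted p = 0.107). In matBFMI versus patBFMI neither passed, at 0.19 for Chd1l and 0.09 for Prkab2 (edgeR adjusted p = 0.534 and 0.938).

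Genes that share substrates or cofactors with the enzymes were read as 4 lists. Of 8 genes of cysteamine and taurine synthesis, whose pathway supplies the hypotaurine that FMO1 oxidises, 2 were called lower in BFMI and 0 higher, where 3.05% of all genes were called lower, and 4 were positive and 4 negative (median log2 fold change 0.02, against -0.04 over all genes). The 2 called were the vanins Vnn1 and Vnn3, which release cysteamine from pantetheine. Vnn1 had 22.3 and 14.4 CPM in the BFMI female and male, against 47.8 and 68.4 CPM in the B6N female and male (log2 fold change -1.68, SE 0.324, edgeR adjusted p = 0.0119). Vnn3 had 43.2 and 30.7 CPM in the BFMI female and male, against 88.4 and 71.3 CPM in the B6N female and male (log2 fold change -1.12, SE 0.141, edgeR adjusted p = 0.000981).

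Of 12 genes of choline and methylamine handling, 1 was called higher in BFMI and 0 lower, where 6.67% of all genes were called in either direction, and 7 were positive and 5 negative (median 0.26). Bhmt, which methylates homocysteine with betaine, had 1407 and 1746 CPM in the BFMI female and male, against 529.8 and 777 CPM in the B6N female and male (log2 fold change 1.29, SE 0.229, edgeR adjusted p = 0.00764). Of 7 genes that supply NADPH, 1 was called higher and 0 lower, and 6 were positive and 1 negative (median 0.23). The 1 called was Pgd, a dehydrogenase of the pentose phosphate pathway (log2 fold change 0.95, SE 0.191, edgeR adjusted p = 0.0147). Of 5 genes of microsomal electron transfer, 1 was called lower and 0 higher, and 2 were positive and 3 negative (median -0.06). The 1 called was Por, which passes electrons from NADPH to cytochrome P450 enzymes and is not needed by flavin monooxygenases (log2 fold change -1.16, SE 0.258, edgeR adjusted p = 0.0244). Por had 78.1 and 45.4 CPM in the BFMI female and male, against 188 and 93.9 CPM in the B6N female and male.

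None of these 4 lists had a member past the edgeR test in matBFMI versus patBFMI (0 of 7 genes of cysteamine and taurine synthesis, 12 of choline handling, 7 of NADPH supply and 5 of electron transfer). The smallest p was that of Me1, the NADPH-forming malic enzyme, with 184, 168 and 218 CPM in matBFMI males, against 82.0, 126 and 107 CPM in patBFMI males (log2 fold change 0.85, SE 0.159, edgeR adjusted p = 0.119). Por had a log2 fold change of 0.82 (SE 0.223, edgeR adjusted p = 0.259), Chka, a choline kinase, -0.69 (SE 0.204, edgeR adjusted p = 0.294) and Vnn1 0.73 (SE 0.221, edgeR adjusted p = 0.308), and each of these 3 values was opposite in sign to that in BFMI versus B6N. Of the choline genes 11 of 12 had a positive value, with a median of 0.11, and of the NADPH genes 6 of 7, with a median of 0.21. No list was tested as a whole.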

How the data were processed

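Liver RNA of 10 mice was measured by RNA-seq, and groups were taken from the sample titles. The authors deposited raw counts per Ensembl gene and RPKM values, which they had quantile normalized. Tools in the submitters' notes are Picard 1.99, Bowtie2 2.2.6, TopHat2 2.10 and Trimmomatic 0.32. Columns with no sample record (3 per file) were not used. For matBFMI versus patBFMI, edgeR 4.0.16 (R 4.3.3) was applied (quasi-likelihood test on counts, TMM, at least 10 counts in at least 3 of 6 libraries, Benjamini-Hochberg, threshold 0.05). Strains, sexes and F1 versus inbred came from 1 fit of all 10 libraries with cross or strain and sex as terms (at least 10 counts in at least 2 libraries), and the interaction from a fit of 6 groups. CPM values use the library sizes and TMM factors of the fit of all 10 libraries. RPKM served to compare genes. A log2 fold change is given with a standard error, taken as its absolute value over the square root of the edgeR F statistic. Replicates are separate animals.

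Alternatives were other scalings, DESeq2 1.42.0, limma 3.58.1, other filters, RPKM with pseudocounts of 1 and 0.1, an exact permutation test, the offspring number as a block, and leaving out each library. Comparisons within each sex and strain were added after seeing the data. The pipeline was tested on simulated data. Members and lists were chosen with earlier results of these data known. Named genes are the 4 members, up to 3 genes of each list with the smallest p, the 3 genes most like each member, and up to 3 tested neighbours within 200000 bases. Sequences are from RefSeq GRCm38.p6 and transcripts were aligned with BLAST 2.17.0. Figures were made with Python 3.11.15 and matplotlib 3.10.9. Other genes of the family, and a few other genes that the rule names, are not reported here.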

Additional observations from a re-analysis of the deposited data

How the results depend on the processing

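All 4 members kept a positive log2 fold change in matBFMI versus patBFMI under every alternative run, and 1 was called (Fmo1) without the filter on low counts and 0 otherwise. On log2(RPKM + 1) in limma Fmo2 was 0.13 and Fmo4 0.17 there, against 0.35 and 0.40 by edgeR. In BFMI versus B6N the count of members called, 1, was 2 with DESeq2 or without the filter (Fmo5 added) and 0 with RPKM in limma (either pseudocount) and within males. For female versus male the count, 0, was 2 with DESeq2, without the filter and with the 4 inbred libraries alone, and 1 with voom and within B6N. Leaving out 1 library gave 0 to 1 members called for the strains and 0 to 1 for the sexes. The interaction of Fmo2 was -1.89 and past the threshold in DESeq2, for which the share of all genes called is not given. With the offspring number as a replicate block 0 members were called, while genes called numbered 175, against 24 without it. Deviations of same-numbered F1 animals correlated at 0.30, -0.06 and 0.10, so that the numbers were not taken as pairs. Genes called in the F1 comparison were 56 with library size only, 307 with DESeq2, 696 without the filter, 2 with RPKM, 12 in the fit of all libraries and 7 to 63 on leaving out 1 library (lowest without matBFMI 3, highest without patBFMI 2). Between the sexes 111 genes were called, against 388 with DESeq2, 209 with voom, 582 without the filter, 419 in the 4 inbred libraries and 40 or 34 with RPKM. Between the strains 1332 were called, against 364 or 320 with RPKM, and the counts by DESeq2 and without the filter are not given. Between F1 and inbred 410 were called, against 882 with DESeq2, 675 with voom, 1410 without the filter, 264 or 42 with RPKM and 13 without the BFMI male.

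Some values near 0 changed sign. Fmo5 in F1 versus inbred was -0.0096 with library size only, -0.00088 with 10 counts in every library, -0.0708 and -0.0711 with RPKM (pseudocounts 1 and 0.1), and -0.27 to 0.35 on leaving out 1 library. Fmo4 there was -0.31 and -0.43 with RPKM and -0.0395 to 0.55 on leaving out 1 library, Fmo1 -0.70 to 0.39 and Fmo2 -1.08 to 0.79. The lowest of these was without the BFMI male for Fmo4 and without the B6N male for the other 3, and the highest without the B6N male for Fmo4 and without the BFMI male for the other 3. Fmo1 in BFMI versus B6N was -0.0167 and -0.0144 with RPKM, -0.52 within females and -0.52 (without the B6N male) to 0.60 (without the BFMI female). For female versus male, Fmo1 was -0.0575 within BFMI and -0.058 (without the B6N male) to 1.06 (without the BFMI female), and Fmo5 was 0.11 within B6N and -0.55 (without the B6N male) to 0.11 (without the BFMI female). The cause was not tested. The inbred comparisons rest on 1 animal per strain and sex.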
